A study of Homo sapiens with 4 samples.

Results

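The genes described here are the metallothioneins of the human lung adenocarcinoma line A549, taken from the deposited table by 7 gene symbols: MT2A, MT1X, MT1F, MT1E, MT1G, MT1M and MTF1, the last being the transcription factor that drives them. All 7 symbols were found among 19732, with 16 of 79989 protein-coding transcripts, and 4 of the 7 reached 1 FPKM (fragments per kilobase of transcript, scaled to the number of mapped fragments). The symbols of 6 further family members in the same table, MT1A, MT1B, MT1H, MT1HL1, MT3 and MT4, are given beside them. The study compared A549 cells carrying a knockdown of RBM4, an RNA-binding protein that acts in splicing and translation, with A549 control cells, and its title names senescence as the subject. There was 1 library per group, made from total RNA. The title of the knockdown sample, A549sh, adds the letters sh to the name of the line without spelling them out. How the knockdown was made is not described further. Whether it was a clone and how long it lasted are not given in the sources used here, and both groups share the A549 background. The series also describes RBM4 knockdown and control samples of the lung cancer line H1299, which were not analysed here. The labels do not hold the number in the column name taken here for the knockdown, and every direction given depends on that assignment.

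Metallothioneins are very small proteins, very rich in cysteine, whose thiols hold zinc and copper and also cadmium and other toxic metals. They buffer free zinc and scavenge oxidants. Their genes lie in a row on chromosome 16 and are switched on by zinc through MTF1, a zinc-finger protein that binds metal response elements (MREs) in their promoters, and also by glucocorticoids and oxidative stress. MT2A and several MT1 genes are active in many tissues, whereas MT3 is best known from brain and MT4 from stratified epithelium.

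The coding sequences of MT2A, MT1X and MT1F are shown because their likeness bears on how reads were shared among them. They come from GENCODE 29 (hg38), each read 5′ to 3′ on the plus strand of chromosome 16, and capitals mark the bases that differ from MT2A at the same position.
MT2A: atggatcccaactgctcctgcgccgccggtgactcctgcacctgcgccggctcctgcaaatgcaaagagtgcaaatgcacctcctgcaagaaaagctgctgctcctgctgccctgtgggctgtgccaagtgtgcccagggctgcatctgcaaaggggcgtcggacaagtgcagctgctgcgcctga
MT1X: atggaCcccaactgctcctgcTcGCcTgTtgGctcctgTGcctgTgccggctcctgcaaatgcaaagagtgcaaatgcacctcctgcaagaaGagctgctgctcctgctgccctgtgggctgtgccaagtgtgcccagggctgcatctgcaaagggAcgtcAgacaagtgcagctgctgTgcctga
MT1F: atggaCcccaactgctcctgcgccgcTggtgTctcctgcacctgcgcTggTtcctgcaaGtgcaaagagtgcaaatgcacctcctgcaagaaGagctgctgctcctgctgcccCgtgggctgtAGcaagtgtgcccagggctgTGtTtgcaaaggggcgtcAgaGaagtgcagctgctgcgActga
Each runs over 3 exons and holds 186 bases, that is 61 codons before the stop, of which 20 are cysteine codons (TGC or TGT). MT1X differs from MT2A at 14 bases (92.5% identity) and MT1F at 16 bases (91.4%). MT1E, listed at 0 FPKM, differs from MT2A at 14 bases too, MT1M at 19, and MT1G is 3 bases longer, at 189.

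MT2A was the most abundant metallothionein and was higher in the knockdown library. MT2A (ENSG00000125148, chromosome 16, 56608199 to 56609497, plus strand of hg38) was listed at 401 FPKM in the knockdown library and 170.3 FPKM in the control library. This was 2.36 times the control level and a log2 difference of 1.23 (knockdown minus control, on log2(FPKM + 1), where weakly expressed genes appear to differ less than they do). MT2A ranked 179th of all symbols by level in the knockdown library and 450th in the control library. As neither group was replicated, no test was made, and each difference is read against its spread over all 12230 genes that reached 1 FPKM in either library, called measured genes here. Their median difference was -0.04 with a robust SD of 0.45. Only 3.099% of measured genes had a higher difference than MT2A.

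MT1X (ENSG00000187193, chromosome 16, 56682424 to 56684196, plus strand) came next by level, with 116.1 FPKM in the knockdown library and 72.9 FPKM in the control library. Its ratio was 1.59 and its log2 difference 0.66, short of 2-fold. Of measured genes, 10.6% had a higher difference. MT1F (ENSG00000198417, chromosome 16, 56657694 to 56660698, plus strand) was low in both libraries, at 6.10 FPKM in the knockdown library and 3.003 FPKM in the control library. Its ratio was 2.03 and its log2 difference 0.83 on the scale with a pseudocount, where it fell short of 2-fold. MT1A (ENSG00000205362, chromosome 16, 56638666 to 56640087, plus strand) had the highest difference of the family and was not among the 7 symbols. MT1A had 24.2 FPKM in the knockdown library and 7.69 FPKM in the control library, a ratio of 3.15 and a log2 difference of 1.54, which 1.56% of measured genes exceeded.

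MTF1 (ENSG00000188786, chromosome 1, 37809567 to 37859620, minus strand) differed little. It had 3.23 FPKM in the knockdown library and 2.81 FPKM in the control library, a log2 difference of 0.15 that 33.7% of measured genes exceeded. Its level per length was below that of MT1F and far below those of MT2A and MT1X in both libraries.

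The members MT1E, MT1G and MT1M were listed at 0 in both libraries, as were MT1B, MT1H, MT1HL1 and MT4. In a table without counts a value of exactly 0 can be a failed estimate, so these genes are only listed at 0 and no fold is given for them. MT3 was listed at 0.33 FPKM in the knockdown library and at 0 in the control library. Of the 26 family transcripts in the table, 7 were above 0 in either library and 19 were listed at 0 in both.

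**Figure D1:**
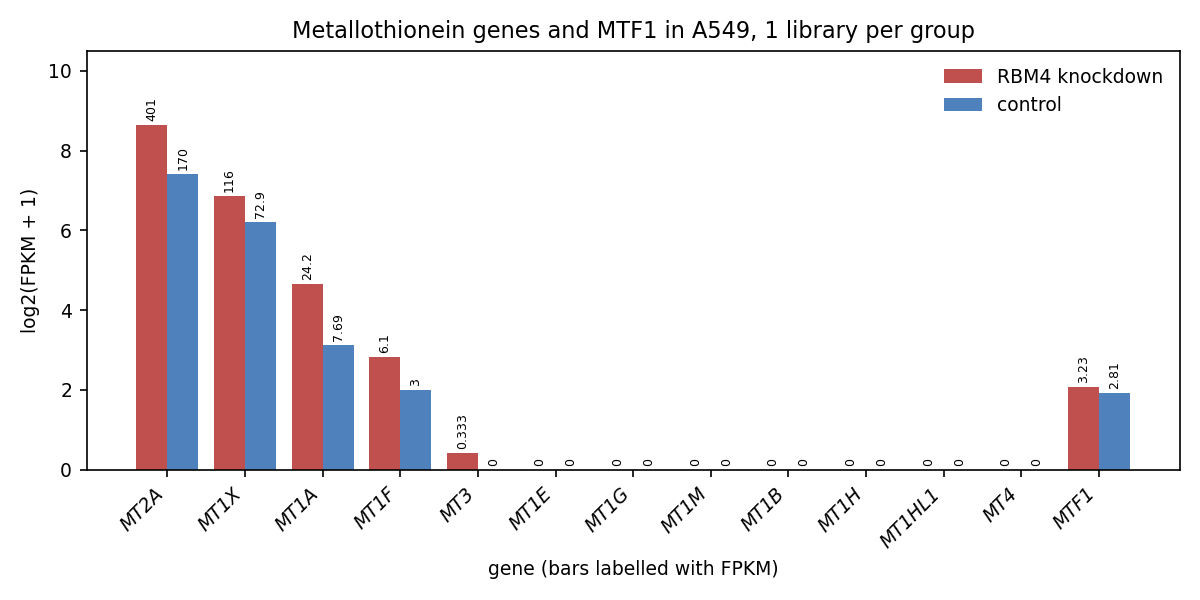
Bars give log2(FPKM + 1) of each metallothionein gene and MTF1 in the RBM4 knockdown library (red) and the control library (blue) of A549, 1 library each with no error bars, and each bar is labelled with its FPKM. MT2A stands at 401 against 170.3 FPKM, 7 symbols are listed at 0 in both libraries, and MTF1 is nearly level at 3.23 against 2.81 FPKM.

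Of the 7 members, 4 were measured, all 4 at 1 FPKM or more in each library, and all 4 had a difference above 0, where 46.6% of all measured genes did. MT2A alone of these passed 2-fold, against 7.21% of measured genes in either direction, 4.96% of measured genes at least 2-fold higher in the knockdown library, and none was at least 2-fold lower, against 2.25%. Over the whole family, 4 of 12 genes were measured, 2 of them (MT1A and MT2A) passed 2-fold upward, and the median of the 4 was 1.03, beside -0.04 for all measured genes. Metallothionein transcripts are short. Among the 1425 measured genes whose most abundant transcript is under 1000 bases, the median difference was -0.12, 39.9% had a difference above 0, 7.58% were at least 2-fold higher, while 6.46% were at least 2-fold lower. The part of transcript length in the metallothionein values was not tested.

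The coding sequences of the 4 measured metallothioneins are 88.7% to 92.5% identical in pairs. Reads from stretches that copies share can be traded between them, whereas their sum depends less on how reads were split. The sum takes the 7 symbols listed at 0 as 0, although such values can be failed estimates. All metallothionein symbols together had 547.7 FPKM in the knockdown library and 253.8 FPKM in the control library, 2.16 times the control and a log2 difference of 1.11. This was 0.0880% of the FPKM total of the knockdown library and 0.0378% of that of the control library. Without MT2A the sum was 146.7 FPKM in the knockdown library and 83.6 FPKM in the control library, a ratio of 1.76. Without both MT2A and MT1X it was 30.7 FPKM in the knockdown library and 10.7 FPKM in the control library, a ratio of 2.87. MT2A made up 73.2% of the family's FPKM in the knockdown library and 67.1% in the control library, and MT1X made up 21.2% and 28.7% in the same order. MT2A therefore stood at 3.46 times MT1X in the knockdown library and at 2.34 times MT1X in the control library.

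The 4 measured genes do not lie side by side. The family spans 119.1 kb of chromosome 16 (56565049 to 56684196), in the order MT4, MT3, MT2A, MT1E, MT1M, MT1A, MT1B, MT1F, MT1G, MT1H and MT1X. MT1E and MT1M, listed at 0, stand between MT2A and MT1A. MT1B stands between MT1A and MT1F, and MT1G and MT1H between MT1F and MT1X. MT1HL1, a single-exon copy, is on chromosome 1. The 3 nearest other genes of the table on each side, named by position alone, lay within 0.37 of 0 on the log2 scale or were listed at 0, except HERPUD1. On the MT4 side, BBS2, which is needed for cilia, had 13.2 FPKM in the knockdown library and 9.99 FPKM in the control library (log2 difference 0.37). Next to it OGFOD1 lay at -0.25 and NUDT21, a factor of mRNA 3′ end processing, at -0.23. On the MT1X side, the nuclear pore gene NUP93 had 39.3 FPKM in the knockdown library and 46.95 FPKM in the control library (-0.25), and the salt transporter gene SLC12A3 was listed at 0 in both. HERPUD1, which acts in the disposal of misfolded proteins, had 120.4 FPKM in the knockdown library and 28.3 FPKM in the control library (2.05). BBS2 and OGFOD1 have overlapping exons on opposite strands and are uncertain, as no strand setting is given.

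**Figure D2:**
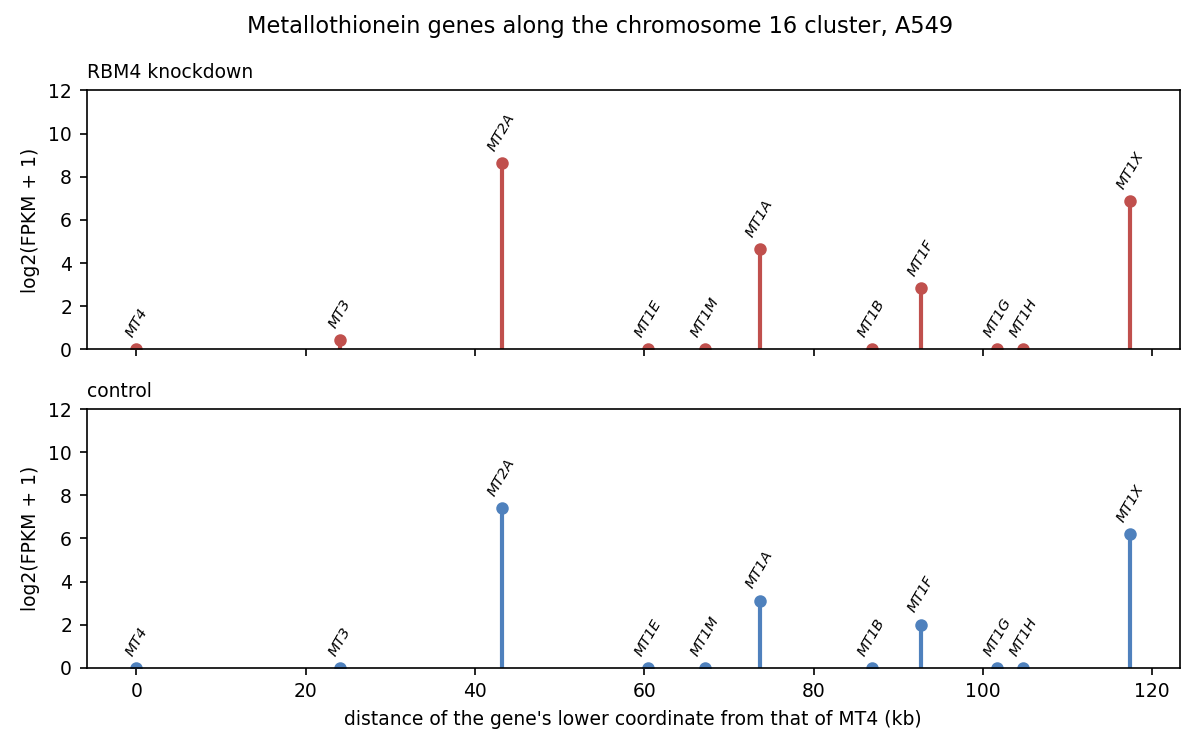
Each stem is 1 metallothionein gene of chromosome 16, placed by the distance of its lower coordinate from that of MT4 in kb, with its height giving log2(FPKM + 1) in the RBM4 knockdown library (top) and the control library (bottom). MT2A, MT1A, MT1F and MT1X stand above 1 FPKM in each library, with genes listed at 0 between them.

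MT1X shares more of its sequence with transcripts of other genes than the other listed metallothioneins do. To see this, each listed transcript was searched for stretches of 50 and of 100 bases that also occur in a GENCODE 29 transcript of another gene. In the main MT1X transcript (ENST00000394485, 450 bases), 45.1% of the 50-base stretches and 19.1% of the 100-base stretches do so. The gene that shares most of them with MT1X is ENSG00000259827, a non-coding gene that overlaps MT1X on the same strand and has no row in the table of protein-coding transcripts. In the main transcripts of MT2A (ENST00000245185, 786 bases), MT1A (ENST00000290705, 396 bases) and MT1F (ENST00000334350, 690 bases), 4.88%, 5.76% and 3.59% of the 50-base stretches are shared, and none of the 100-base stretches. The shared 100-base stretches of MT1X are shared with that overlapping gene alone. Such sharing concerns how reads at 1 locus were assigned to overlapping genes, whereas sharing with other copies concerns reads with several matches. The read length and the treatment of either kind of read are not given in the sources used here, so the levels of single copies are uncertain.

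Nearly all of the signal of MT2A and MT1X came from 1 transcript each. MT2A transcript ENST00000245185 had 393.4 FPKM in the knockdown library and 167.7 FPKM in the control library, a ratio of 2.35, and held 98.1% and 98.5% of the gene's FPKM in that order. The minor MT2A transcript ENST00000561491 had 7.59 FPKM in the knockdown library and 2.56 FPKM in the control library, a ratio of 2.96. MT1X transcript ENST00000394485 had 115.3 FPKM in the knockdown library and 71.6 FPKM in the control library, a ratio of 1.61. The minor MT1X transcript ENST00000562939 went the other way, at 0.74 FPKM in the knockdown library and 1.25 FPKM in the control library, and 55.8% of its 50-base stretches are shared with the overlapping gene.

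**Figure D3:**
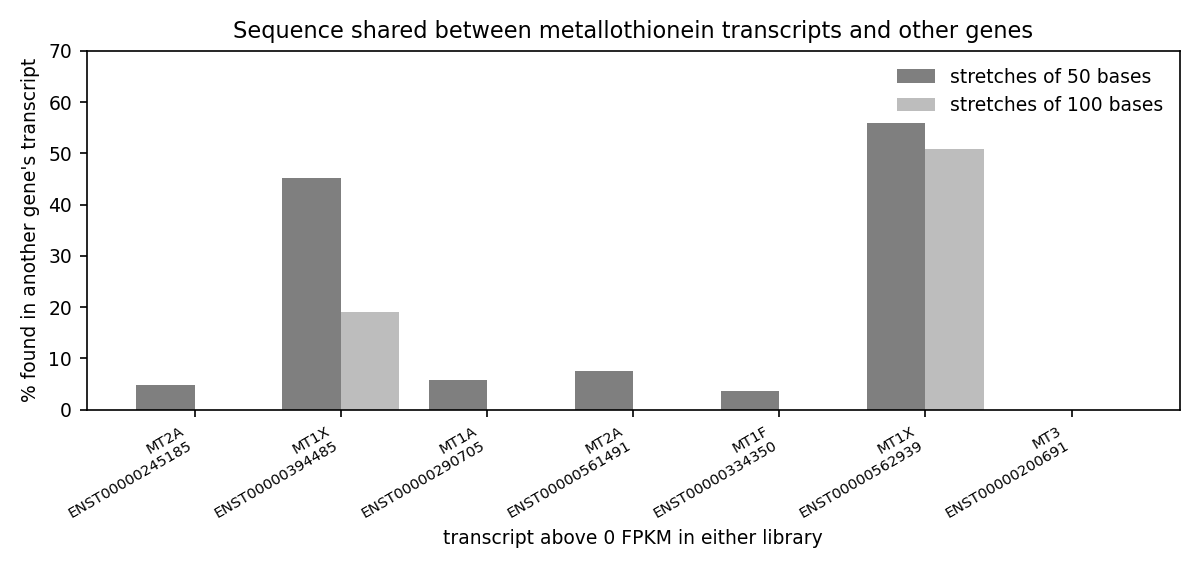
Bars give, for each metallothionein transcript above 0 FPKM in either library, the percentage of its 50-base (dark) and 100-base (light) stretches that also occur in a transcript of another gene of GENCODE 29. Both MT1X transcripts stand out at 45.1% and 55.8% of 50-base stretches, while MT2A, MT1A and MT1F lie between 3.59% and 7.52% and MT3 is at 0.

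The promoters of MT2A and MT1X, and of the MTF1 target SLC30A1 for comparison, are shown because the elements that MTF1 binds lie there. Each is the 250 bases before the RefSeq transcript start (GRCh38.p14), on the strand of the gene and 5′ to 3′. Capitals mark matches to the core of the metal response element, searched as TGCACNC and TGCGCNC on both strands.
MT2A, chr16:56608334-56608583, plus strand: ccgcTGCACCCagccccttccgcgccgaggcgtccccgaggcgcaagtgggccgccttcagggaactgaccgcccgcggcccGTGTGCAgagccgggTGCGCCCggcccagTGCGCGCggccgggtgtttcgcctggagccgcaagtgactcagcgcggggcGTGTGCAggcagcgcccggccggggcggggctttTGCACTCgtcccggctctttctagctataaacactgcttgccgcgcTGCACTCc
MT1X, chr16:56682220-56682469, plus strand: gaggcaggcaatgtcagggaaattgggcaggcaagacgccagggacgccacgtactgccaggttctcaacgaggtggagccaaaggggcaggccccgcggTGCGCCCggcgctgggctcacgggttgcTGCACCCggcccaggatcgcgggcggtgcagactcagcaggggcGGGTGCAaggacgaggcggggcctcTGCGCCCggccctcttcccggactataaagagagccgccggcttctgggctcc
SLC30A1, chr1:211579162-211579411, minus strand: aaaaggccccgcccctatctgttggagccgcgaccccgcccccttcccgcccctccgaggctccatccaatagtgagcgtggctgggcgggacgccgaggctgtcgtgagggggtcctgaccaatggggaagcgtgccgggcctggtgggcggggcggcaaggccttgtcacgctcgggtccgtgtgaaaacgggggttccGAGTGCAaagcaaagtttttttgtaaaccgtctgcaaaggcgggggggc
MT2A has 7 matches, between 2 and 246 bases before the RefSeq start, and MT1X has 4, between 47 and 150 bases. These starts differ from the GENCODE gene starts. The MT2A window lies inside the GENCODE gene (56608199 to 56609497), and the MT1X window overlaps the start of its gene (56682424). The SLC30A1 window lies upstream of its minus-strand gene, whose upper coordinate is 211578742, without touching it. The windows thus differ in place relative to the GENCODE genes, and the bases before the GENCODE starts were not searched as such. Of all 35116 promoters in the RefSeq table, 24.8% have at least 1 match, 0.370% have at least 4 and 0.0313% have at least 7. SLC30A1 has 1 match and MTF1 has none. MT2A, with 7 matches, was listed at a higher level than MT1X, with 4, in both libraries. MT1H has 8 matches and was listed at 0 in both libraries, and MT1B and MT4, with 3 each, were listed at 0 as well. As a listed 0 can be a failed estimate, no order of the whole family by number of matches can be read from these values. The core of the antioxidant response element, searched as TGACNNNGC on both strands, has 1 match each in MT2A, MT1X, MT1B and SLC30A1, none of which overlaps a metal response match, and 10.9% of all promoters have at least 1. The promoter table held 3 of the 7 members (MT2A, MT1X and MTF1). It held 5 of the 12 metallothionein symbols, without MT1A and MT1F.

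Across all measured genes found in the promoter table, more core matches did not go with larger differences. The 225 measured genes with 3 or more matches had a median log2 difference of -0.07, and 2.67% of them were at least 2-fold higher in the knockdown library. The 6296 measured genes with no match had a median of -0.04, and 4.69% were at least 2-fold higher. These are descriptions of letters in a window, without a test.

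**Figure D4:**
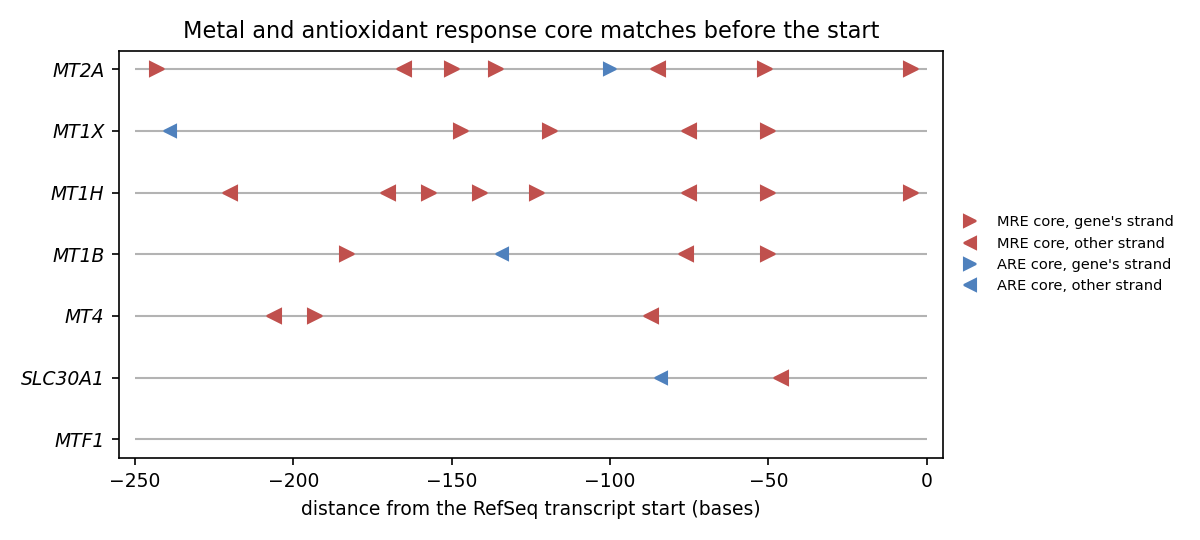
Triangles mark matches to the metal response core (MRE, red) and the antioxidant response core (ARE, blue) in the 250 bases before the RefSeq start, pointing right on the gene's strand and left on the other strand, with the distance from the start in bases. MT2A carries 7 and MT1H 8 metal response matches, SLC30A1 carries 1 and MTF1 none.

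SLC30A1, which encodes the zinc exporter of the cell surface and is a textbook target of MTF1, lay on the other side of the control from the metallothioneins. It had 11.8 FPKM in the knockdown library and 18.8 FPKM in the control library, a ratio of 0.63 and a log2 difference of -0.63, short of 2-fold. Of 11 zinc exporter genes listed, 7 were measured, none passed 2-fold, and their median was -0.05. The highest was SLC30A3 at 2.18 FPKM in the knockdown library and 1.42 FPKM in the control library (0.39), with SLC30A7, which carries zinc into the Golgi, at 0.27. SLC30A5, which carries zinc into the secretory pathway, was lowest after SLC30A1 (-0.15).

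Zinc importer genes of the SLC39 family went both ways. Of 14 listed, 11 were measured, 6 with a difference above 0 and 5 below, and their median was 0.09. SLC39A13, an importer of intracellular membranes, had 28.2 FPKM in the knockdown library and 12.4 FPKM in the control library (1.12), and was the 1 member at least 2-fold higher. SLC39A10, an importer of the cell surface, had 83.1 FPKM in the knockdown library and 50.1 FPKM in the control library (0.72). SLC39A6 had 13.6 FPKM in the knockdown library and 29.6 FPKM in the control library (-1.06), and was the 1 member at least 2-fold lower, but none was once the libraries were set to equal FPKM totals. SLC39A3 lay at -0.80 and shares exons with another gene, so it is uncertain.

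Copper handling genes had a median of -0.01 over 15 measured of 16 listed, with none at least 2-fold higher and 1 lower (none at equal totals). The metalloreductase genes STEAP3 (0.52) and STEAP2 (0.50) were highest. SOD1, the cytosolic copper and zinc superoxide dismutase, had 143.4 FPKM in the knockdown library and 217.8 FPKM in the control library (-0.60). CUTC, whose product binds copper and whose exons overlap those of ENTPD7, had 12.4 FPKM in the knockdown library and 27.1 FPKM in the control library (-1.07).

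Genes of proteins that act at metallothionein promoters or control such proteins were measured in all 14 cases listed. None passed 2-fold, 5 lay above 0 and 9 below, and their median was -0.19. The median was -0.08 at equal FPKM totals and -0.03 with mitochondrial genes left out, with 6 above 0 and 8 below in either case. The hypoxia factor HIF1A had 165.4 FPKM in the knockdown library and 144.9 FPKM in the control library (0.19), and MTF1 was next (0.15). NFE2L2, the antioxidant factor NRF2, had 44.4 FPKM in the knockdown library and 54.2 FPKM in the control library (-0.28). KEAP1, which holds NRF2 in check, was lowest at 17.8 FPKM in the knockdown library and 29.5 FPKM in the control library (-0.70), followed by CTCF (-0.68). The glucocorticoid receptor gene NR3C1 had 57.6 FPKM in the knockdown library and 80.2 FPKM in the control library (-0.47).

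Metal and oxidant stress genes, known to respond to some of the inducers of metallothioneins, were lower in the knockdown library as deposited. Whether any of these inducers differed between the groups was not tested. The 14 measured of 15 metal and oxidant stress genes all lay below 0, or 13 of them once mitochondrial transcripts were removed. Their median was -0.71, and 4 were at least 2-fold lower (2 at equal totals), where 2.25% of all measured genes were at least 2-fold lower and 46.6% lay above 0. Among those 4, HSPA1A (-1.10) and HSPA1B (-1.08) are near-identical copies that can share reads. HMOX1, the heme oxygenase induced by heavy metals and oxidants, had 35.6 FPKM in the knockdown library and 109.5 FPKM in the control library (-1.60). OSGIN1 lay lowest (-1.71), and SLC7A11, the cystine transporter, lay highest at 76.7 FPKM in the knockdown library and 83.5 FPKM in the control library (-0.12), with HSPH1 next (-0.29). This list and the list of zinc exporters both contain SLC30A1.

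Glucocorticoid receptor target genes had a median of 0.19 over 17 measured of 18 listed, 12 of them above 0, beside 46.6% of all measured genes. In this list 2 genes were at least 2-fold higher, beside 4.96% of all measured genes. Among them, ANGPTL4, an inhibitor of lipoprotein lipase, had 56.1 FPKM in the knockdown library and 6.80 FPKM in the control library (2.87). FKBP5, among the most specific of these targets, had 3.78 FPKM in the knockdown library and 8.17 FPKM in the control library (-0.94), and ERRFI1 lay at -0.95. TSC22D3, another well-known target, had 14.7 FPKM in the knockdown library and 11.99 FPKM in the control library (0.28). Exons of SLC30A3, SLC30A5, STEAP3, HIF1A, NFE2L2, CTCF, SLC7A11, ANGPTL4, ERRFI1, TSC22D3 and TPM1 overlap a gene on the opposite strand. Those of OSGIN1, HIF1A, NFE2L2 and HSPA1B overlap a gene on the same strand. The values of all these genes are therefore uncertain.

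**Figure D5:**
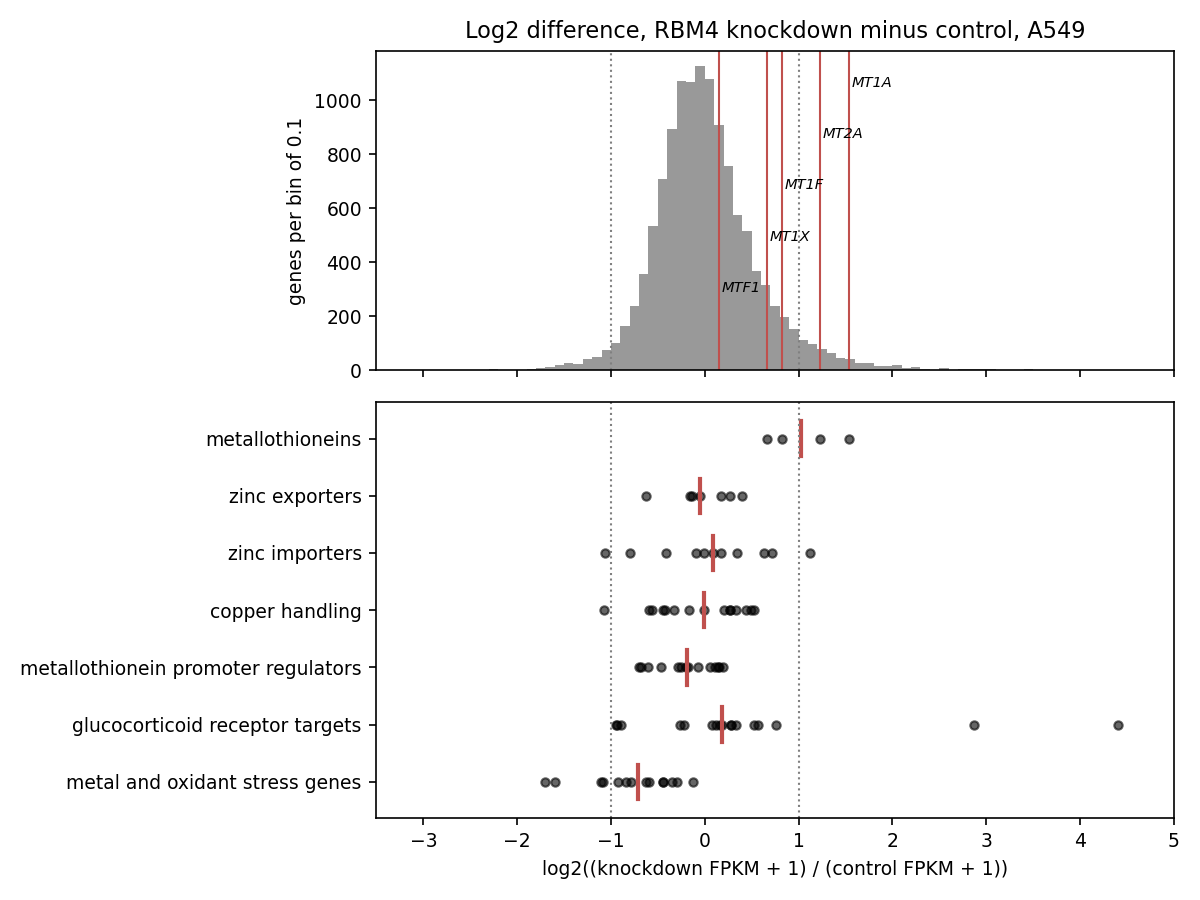
The upper panel counts measured genes by log2 difference (RBM4 knockdown minus control), with red lines at 5 named genes, and the lower panel gives each measured gene of a list as a point with the list's median in red, with dotted lines at 2-fold. The 4 metallothioneins lie between 0.66 and 1.54, and the 14 metal and oxidant stress genes lie between -1.71 and -0.12.

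Among 261 genes whose mean level was within 2-fold of that of the metallothionein sum, 3 (1.15%) had a difference at or above the 1.11 of the sum. Those closest to it were HSPA5, the main chaperone of the endoplasmic reticulum, at 295.9 FPKM in the knockdown library and 136.9 FPKM in the control library (1.11), the tropomyosin gene TPM1 (1.13), the microtubule protein gene MAP1B (1.00), the membrane linker gene MSN (0.89) and the galectin gene LGALS1 (0.85). The likeness is in 1 difference between 2 libraries.

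RBM4, the knocked-down gene, had 30.6 FPKM in the knockdown library and 59.4 FPKM in the control library (-0.93), and it shares exons with a read-through transcript of RBM14 and overlaps its paralog RBM4B on the opposite strand, so its value is uncertain. Mitochondrially encoded transcripts took 21.7% of the FPKM total in the knockdown library and 18.6% in the control library, and their part in the differences is given by the scalings in the closing section. Of 7 epithelial markers, 7 reached 1 FPKM in the knockdown library and 6 in the control library, and they summed to 4343 FPKM in the knockdown library and 5420 FPKM in the control library. Their differences went both ways, with the keratin genes KRT18 (-1.02) and KRT8 (-0.89) lower in the knockdown library and the claudin gene CLDN4 (3.89) and the keratin genes KRT19 (1.11) and KRT7 (0.38) higher. The part of the markers in the metallothionein values was not tested. Fibroblast markers summed to 26.98 FPKM in the knockdown library and 6.06 FPKM in the control library, nearly all from THY1, with DCN listed at 0 in both. Blood and immune markers summed to 4.73 FPKM in the knockdown library and 2.16 FPKM in the control library. Nearly all of this came from CD14, and CD3E, LYZ and HBB were listed at 0 in both. Endothelial markers summed to 0.40 FPKM in the knockdown library and to 0 in the control library. In bulk RNA, a different number of cells of a type and a different amount of RNA per cell cannot be told apart.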

How the data were processed

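Trizol extraction and the TruSeq RNA kit are named in the labels' protocols. The tools named are CASAVA 1.8.2, TopHat and Cufflinks, and the build hg38, per the submitters' processing notes. Neither the role of each tool nor the annotation, strand setting or filters is stated there. FPKM per protein-coding transcript is what the authors deposited. No counts were used, so the depth is unknown and no counting interval is given. For A549, the column bearing just the line's name was taken as control, and the one with a number after it as knockdown. In the H1299 table, 3 columns for 2 samples matched no label and were not used.

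Transcripts were summed per symbol, and genes at 1 FPKM or more in either library were kept. Differences subtract control from knockdown on log2(FPKM + 1), and 2-fold is the threshold of a call. No test was made with 1 library per group. The step that finds genes past 2-fold was run on simulated data with planted changes and an assumed noise. The true noise is unknown without replicates, so that run does not tell how many of the genes found here truly differ. The members and gene lists were chosen with earlier results of these data known. Named genes are RBM4, the 7 members, all other metallothioneins, the 2 highest and 2 lowest measured genes of each list, SLC30A1, NFE2L2, and the 5 genes closest to the metallothionein sum. A few items, 1 of them named by this rule, are not reported here. NR3C1, TSC22D3, HSPA1A, HSPA1B, the markers and the neighbours of the cluster lie outside the rule, and all but the neighbours were named after their values were seen. Python 3.11.15 with pandas 2.3.3 and numpy 2.4.6 was used. Positions, lengths and coding sequences came from GENCODE 29 (hg38), to which 99.5% of transcripts matched by identifier, and promoters from RefSeq (GRCh38.p14). Alternatives covered the pseudocount, the minimum, the scaling and the summing of transcripts.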

Additional observations from a re-analysis of the deposited data

How the results depend on the processing

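The differences of MT2A, MT1X, MT1F and MTF1 stayed above 0 and on their side of 2-fold under all 6 alternatives of pseudocount, scaling, centring and transcript choice. MT2A ran between 1.21 and 1.39, MT1X between 0.64 and 0.83, MT1F between 0.47 and 0.998 and MTF1 between 0.08 and 0.27. The ratio of the metallothionein sum was 2.16 as deposited and with the highest transcript per symbol, 2.33 at the same total and 2.42 with mitochondrial genes left out. It was 2.87 without MT2A and MT1X, but 1.76 without MT2A alone. Against the pseudocount of 1, the count of genes at least 2-fold higher was 985 with a pseudocount of 0.1 and 223 with 5, and that of genes at least 2-fold lower was 418 and 137 in the same order, where the main counts were 607 and 275. With mitochondrial genes left out, 176 genes were at least 2-fold lower. Of all genes past 2-fold, 68.8% were higher as deposited, 78.6% with both libraries at the same total and 82.2% without mitochondrial genes. These scalings raised the median over measured genes by 0.10 and 0.15. Relative to that median MT2A lay at 1.27. The medians of the zinc exporter and copper lists, close to 0, turned to 0.03 and 0.10 at the same total. With mitochondrial genes left out they were 0.07 and 0.15, and with a minimum of 5 FPKM they were -0.14 and -0.17. Centred on the median of all genes, that of the copper list was 0.03. No paired analysis was possible because each group has 1 library. The results planned for H1299 were not computed. No library could be left out, since 1 library stands for each group. Unknown depth limits MT1F, MTF1 and MT3, which were listed at low FPKM. It also limits MT1A, whose transcript of 396 bases was at 7.69 FPKM in the control library. Which of them it limits most is unknown, as no counts were used.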
